A study of Mus musculus with 12 samples.

Results

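The transcripts of Esrp1 and of its paralog Esrp2 were examined for contacts of ESRP1 protein, using 3 lists of single-nucleotide sites mapped by eCLIP in mouse epidermis. In eCLIP, proteins are fixed to bound RNA with ultraviolet light and recovered by immunoprecipitation, and a contact is read from where reverse transcription halts. Members were the sites inside the GRCm38 span of either gene, on the gene's own strand, and within each list sites separated by no more than 10 nt counted as 1 region. By this rule 50 of 167480 sites over the 3 lists were members, 44 in Esrp1 and 6 in Esrp2. They formed 22 of the 45738 regions in the union of the lists. The rule used position and strand, and not the number or the scores of sites.

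The labels name 6 FLAG immunoprecipitations and 6 inputs, as biological replicates 1 to 6. All came from Epidermis of pups on postnatal day 1 with the genotype Esrp1FLAG/FLAG, so endogenous ESRP1 carried the tag, and no other treatment is named. The membrane between 75 and 140 kDa was excised for the immunoprecipitations and the inputs alike. The authors called sites on pairs of replicates, using input: replicates 1 and 2 gave list 1, replicates 3 and 4 gave list 2, and replicates 5 and 6 gave list 3. Every Esrp1 transcript in these animals comes from a tagged allele, and the place of the tag in the gene is not stated in the labels. The lists hold 73602, 40014 and 53864 sites. They carry no read counts, so depth is unknown, the input cannot be set beside the pull-down, and how far the 2 replicates behind a list differed cannot be seen.

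ESRP1 and ESRP2 are epithelial splicing regulators that bind GU-rich RNA through RNA recognition motifs. Their position relative to an alternative exon is known to decide between its inclusion and its skipping, as in the epithelial exon of Fgfr2. Both genes are active in epidermis, where they are known to act partly in place of each other. Many splicing regulators contact the RNA of their own gene or of a paralog, and such contacts are a known route by which these genes control their own levels. Neither RNA level nor splicing was measured here.

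The labelled tissue was checked against marker genes by their sites, although a gene without a site may still be expressed. Of 11 epidermal keratinocyte markers, 7 had a region found in all 3 lists, and these were Jup, Krt5, Flg2, Cdh1, Krt15, Dsp and Trp63. Over all 21896 protein-coding genes the share was 16.4%. For genes without an annotated strand the strand with most sites was taken, which may not be the gene's own. The strand of Cdh1, Krt15 and Trp63 was taken in this way. Krt10 had 4 sites summed over the lists and no region found in all 3. No site was counted in Krt14, Krt1 or Lor, which are abundant in this tissue. Of 15 markers of other cells (endothelium, immune cells, melanocytes and dermal fibroblasts), 1 had such a region, the macrophage gene Csf1r, likewise on a strand taken from the sites. Col3a1 and Dct had 5 sites each summed over the lists, Col1a2 had 2 and Pmel had 1, without such a region. Another 10 of the 15 had no site and 5 had at least 1, where 33.7% of all protein-coding genes had at least 1 site in any list. The share of these markers with a site was thus near that of all genes, and does not show which cells were present.

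Esrp1 RNA carried ESRP1 sites in every list and held 3 regions found in all 3 lists. Its span covers chromosome 4 from 11331933 to 11386783 on the minus strand, 54851 nt. It held 21 sites in list 1, 11 in list 2 and 12 in list 3, with a mean of 14.7 ± 5.51 (SD, n = 3 lists). List 1, the longest list, had the most sites. Set against the length of each list, the counts lay closer together, at 2.85, 2.75 and 2.23 sites per 10000 sites of the list. No site of any list lay on the opposite strand of the span.

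These sites formed 10, 9 and 7 regions in lists 1, 2 and 3. Of these, 5 of the 10, 7 of the 9 and 4 of the 7 consisted of 1 site. In the union of the lists Esrp1 had 17 regions, of which 3 were found in all 3 lists, 3 in 2 lists and 11 in 1 list. List 2 had the most regions of its own, 6, against 4 in list 1 and 1 in list 3. All 3 regions found in exactly 2 lists were shared by lists 1 and 3.

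**Figure D1:**
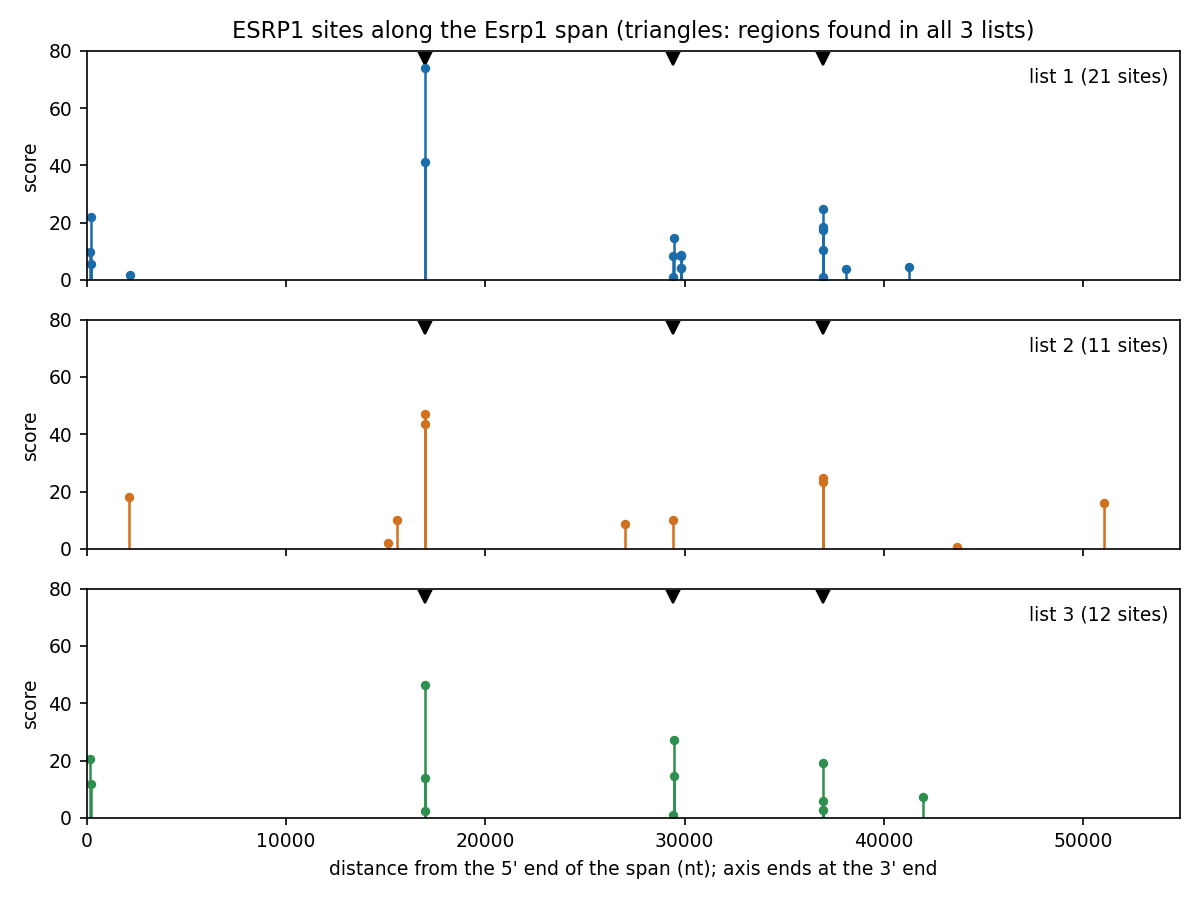
Deposited score of each site (vertical axis, 1 panel per list) against its distance in nt to the 5′ end of the Esrp1 span, with black triangles over the 3 regions found in all 3 lists. The site at 16998 nt is the highest in each list, with scores of 74.0, 47.2 and 46.2, and no site lies in the last 3787 nt.

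Among all protein-coding genes, 16.4% had at least 1 region found in all 3 lists and 2.53% had at least 3, as Esrp1 did. Longer genes have more room for regions. In the decile of genes by span that holds Esrp1, 35790 to 57100 nt, the shares were 21.4% and 3.52%. Esrp1, at 54851 nt, lies near the upper edge of that decile. By sites summed over the lists Esrp1, with 44, ranked 354 of 21896. In its own decile it ranked 54 of 2190, and by sites per kb of span it ranked 1719. In list 1, 283 genes had more sites than Esrp1, in list 2 there were 256 and in list 3 there were 639. These ranks carry no test, because RNA level can affect how many sites a gene gives and was not measured. In bulk tissue, fewer cells with an RNA and less RNA per cell cannot be told apart.

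The strongest Esrp1 region lay in the first part of the gene and held 2 nucleotides called in every list. It covered chr4:11369783-11369785 on the minus strand, 16998 to 17000 nt from the 5′ end, or 31.0% of the way along the span. List 1 held 2 sites there, list 2 held 2 and list 3 held 3. Nucleotides 11369785 and 11369784 were called in all lists, and they were the only Esrp1 nucleotides of which this was true. At 11369785 the scores were 74.0, 47.2 and 46.2, which put the site at percentile 91.3 of list 1, 87.7 of list 2 and 80.4 of list 3. It was the highest-scoring Esrp1 site in each list. At 11369784 the percentiles were 82.1, 86.3 and 43.2, so list 3 ranked the second nucleotide lower than the others did.

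The second region, in the middle of the gene, was weak and its sites were not the same. It covered chr4:11357371-11357385, 29398 to 29412 nt from the 5′ end. List 1 had sites at 11357371 and 11357374, list 2 had 1 site at 11357385 and list 3 had 1 site at 11357375. No nucleotide was shared, and the site of list 2 lay 10 nt from that of list 3, which is the longest distance the rule allows, and 11 nt from the nearest site of list 1. Its best percentiles were 41.3, 39.7 and 4.88. Requiring the lists' regions to overlap removed it, which left Esrp1 with 2 regions found in all 3 lists.

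It belonged to a group of 3 regions within 449 nt. The next, chr4:11357291-11357293, came from lists 1 and 3, which both had a site at 11357291, with scores of 14.6 and 27.1. The last, chr4:11356937-11356942, held 4 sites of list 1 only, with best score 8.54. Together the group had 7 sites in list 1, 1 in list 2 and 3 in list 3.

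The third region found in all 3 lists was the broadest in sites. It covered chr4:11349831-11349842, 36941 to 36952 nt from the 5′ end and 67.4% of the way along the span. It held 6, 2 and 3 sites in lists 1, 2 and 3 on 8 different nucleotides. List 1 shared 11349841 with list 2, and 11349836 and 11349835 with list 3, but no nucleotide was called in all 3 lists. Best percentiles were 70.6, 72.1 and 52.3, above the middle of each list.

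**Figure D2:**
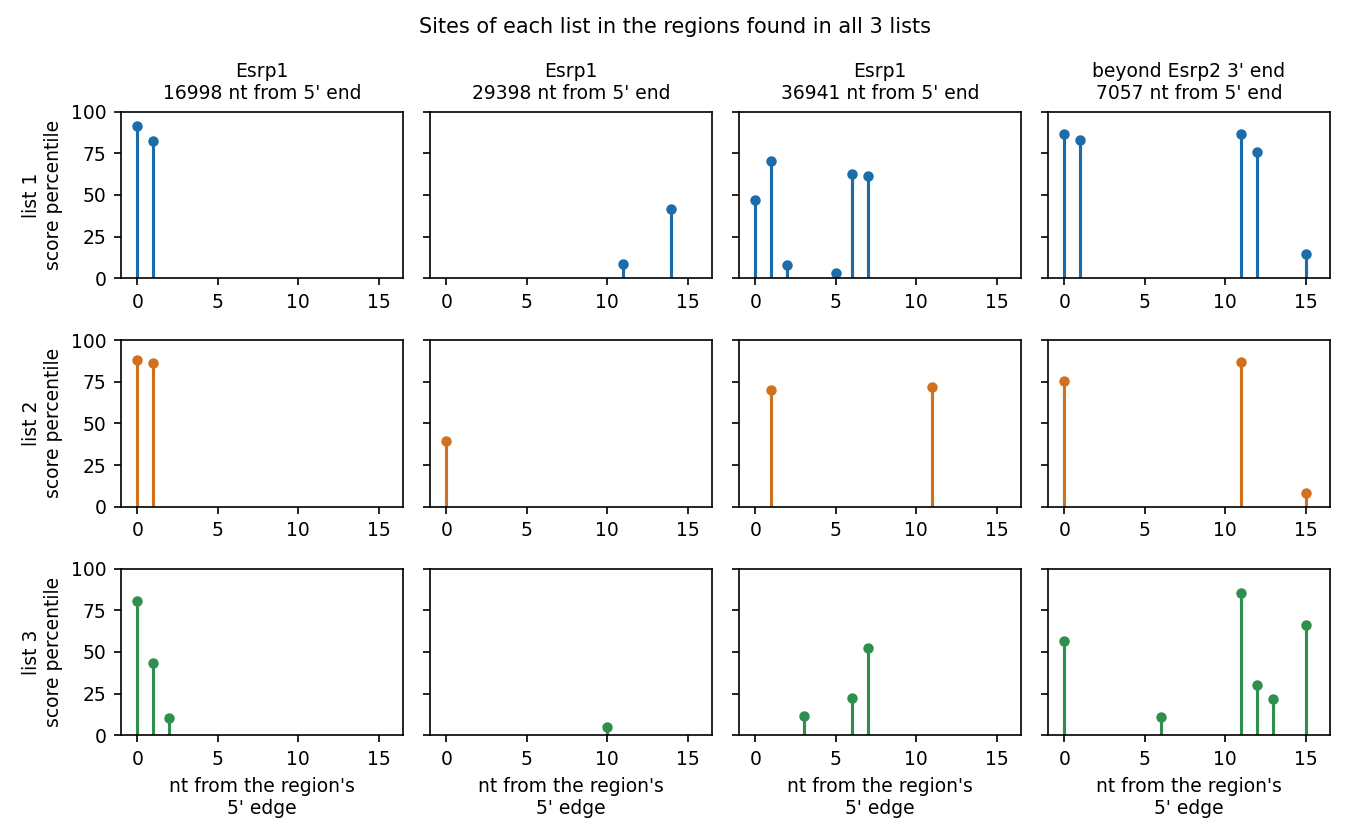
Percentile of each site's score within its list (vertical axis, 1 row per list) against the distance in nt from the region's 5′ edge, for the 3 Esrp1 regions found in all 3 lists and for the region beyond the annotated 3′ end of Esrp2. The first column has 2 nucleotides called in every list and the last column has 3, beside others called in 1 or 2 lists, and the middle columns have none called in every list.

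These 3 regions held 22 of the 44 Esrp1 sites, made up of 10 of 21 in list 1, 5 of 11 in list 2 and 7 of 12 in list 3. Averaged over lists, their best percentiles were 86.5, 28.6 and 65.0 in the order given above. The median over all 9649 regions found in all 3 lists was 75.3, so the first lay above it and the others below. Of those 9649 regions, 28.0% had a higher mean than the first, 97.5% than the second and 67.3% than the third.

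Near the 5′ end Esrp1 had a pair of regions in lists 1 and 3. The first lay at chr4:11386607-11386608, 175 to 176 nt from the 5′ end, with 1 site each of lists 1 and 3 on neighbouring nucleotides. The other lay at chr4:11386576-11386578, and both lists had a site at 11386576, with scores of 22.1 in list 1 and 11.9 in list 3. List 2 had no site in the first 1000 nt, and its first lay 2134 nt from the 5′ end. Without list 2, these regions and the one at 11357291 raised the number of Esrp1 regions found in all remaining lists to 6.

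The 3′ end of Esrp1 was bare. None of the 44 sites lay in the last 1000 nt of the span. The nearest was a single site of list 2, 3787 nt from the 3′ end, and the nearest of lists 1 and 3 lay 13569 and 12867 nt from it. Over all protein-coding spans of at least 4000 nt, the last 1000 nt held 19.2% of regions found in all 3 lists, and the first 1000 nt held 8.88%. With 3 such regions in Esrp1, a difference from those shares cannot be tested. Divided from the 5′ end into 3 parts of equal length, Esrp1 held 6, 7 and 8 sites of list 1, 5, 2 and 4 of list 2, and 5, 3 and 4 of list 3. No part was empty in any list. The annotation used gives the extent of a gene but not its exons, so whether a site lies in an exon, an intron or an untranslated region is not given here.

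The share of Esrp1 sites that recurred at the exact nucleotide was below that of all sites in each list, on small counts. The 2 nucleotides called in all lists were 9.52% of the Esrp1 sites of list 1, against 19.8% of all sites of that list. They were 18.2% against 36.4% in list 2 and 16.7% against 27.1% in list 3. Of 35 different Esrp1 nucleotides, 7 were called in at least 2 lists, 20.0% against 33.6% of all 114459 nucleotides. Neighbouring sites share their source, so these shares carry no test. Median percentiles of Esrp1 sites were 41.3 in list 1, 53.5 in list 2 and 41.1 in list 3, where all sites have a median of about 50 by construction.

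Esrp2 RNA carried few sites inside its annotated span, and none recurred. The span covers chromosome 8 from 106130319 to 106137193 on the minus strand, 6875 nt. It held 0 sites in list 1, 1 in list 2 and 5 in list 3, with a mean of 2.00 ± 2.65 (SD, n = 3 lists). List 3 thus gave nearly all of them, and without it the mean of the remaining lists was 0.5. The 5 union regions each came from 1 list, and no nucleotide was shared.

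The site of list 2 lay at chr8:106136483, 710 nt from the 5′ end, with a score of 20.1 at percentile 64.2. The sites of list 3 lay 2269 to 2901 nt from the 5′ end, at 106134924, 106134912, 106134395, 106134394 and 106134292. Their scores were 4.05, 12.3, 7.13, 7.13 and 1.69, all below the median of that list. Only the site of list 2 was in the upper part of its list by score. A further site of list 2 lay on the opposite strand of the span, and its position is not given here. On that strand the long noncoding RNA gene 1810019D21Rik overlaps Esrp2 by 1794 nt and Nfatc3 overlaps it by 219 nt.

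Esrp2, with 6 sites summed over the lists, lay below the median of 9 among protein-coding genes with a site. Of all protein-coding genes, 20.0% had more sites. In at least 1 list, 33.7% of protein-coding genes had at least 1 site, as Esrp2 did, and 19.2% had a site in every list, which Esrp2 did not. Of genes in the decile of Esrp2 by span, 4157 to 7363 nt, 10.7% had a region found in all 3 lists. By summed sites Esrp2 ranked 4388 of 21896, and 280 of 2189 in its decile, where the median was 0. Per kb of span it ranked 1584, and 7.23% of genes had more. It had 0.873 summed sites per kb, against a median of 0.249 among genes with a site.

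A strong region on the strand of Esrp2 lay just beyond its annotated 3′ end. It covered chr8:106130121-106130136 on the minus strand, 183 to 198 nt past the end of the span. It held 5 sites in list 1, 3 in list 2 and 6 in list 3. Nucleotides 106130136, 106130125 and 106130121 were called in all lists. At 106130125 the scores were 52.9, 44.5 and 57.3, at percentiles 86.6, 86.8 and 85.6. The region's mean best percentile was 86.3, close to the 86.5 of the strongest Esrp1 region, and 28.2% of regions found in all 3 lists had a higher one. In lists 2 and 3 its best score lay above every score inside the Esrp2 span, and in list 1 the span held no site.

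That region is outside the rule and is not counted among the members. The only protein-coding span over it is that of Nfatc3, a transcription factor gene on the plus strand, which overlaps the last 219 nt of Esrp2. The sites are on the minus strand, so they are antisense to Nfatc3. Whether the RNA is an Esrp2 transcript that runs past the annotated end or another RNA was not tested. With the span extended by 1000 nt at both ends, Esrp2 had 5, 4 and 11 sites and 1 region found in all 3 lists. Of 17493 protein-coding genes with a strand, 55 (0.314%) had such a region within 1000 nt past the 3′ end and under no other protein-coding span of that strand. This share was computed after the region had been seen, and carries no test. No such region lay past the 3′ end of Esrp1.

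**Figure D3:**
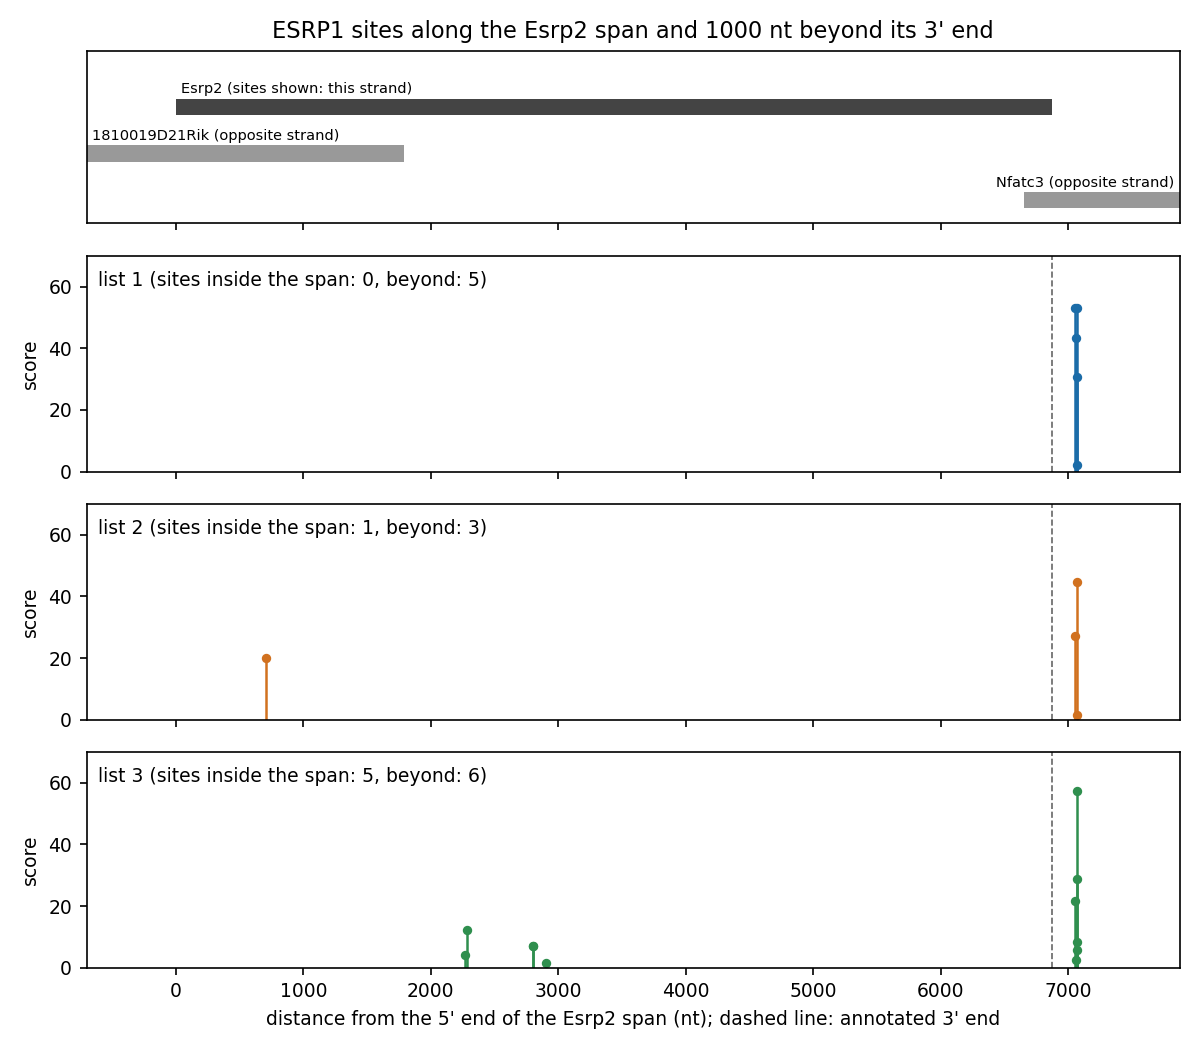
Top, extents of Esrp2 and of the overlapping genes 1810019D21Rik and Nfatc3. Below, the deposited score of each site on the strand of Esrp2 (1 panel per list) against its distance in nt to the 5′ end of Esrp2, up to 1000 nt past the annotated 3′ end (dashed line). The 5, 3 and 6 sites past the dashed line form 1 region at the same place in every list, and the span itself holds 0, 1 and 5 sites.

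Esrp1 had more sites than Esrp2 in each list, but not per length of gene. The means were 14.7 ± 5.51 and 2.00 ± 2.65 sites (SD, n = 3 lists each), a difference of 12.7 (exact permutation test over lists, two-sided, p = 0.1, the smallest this test can give). That test takes the values as independent, although both genes were counted in the same lists. Paired by list, Esrp1 had 21, 10 and 7 more sites than Esrp2 in lists 1, 2 and 3 (exact sign-flip permutation test, two-sided, p = 0.25, the smallest that 3 pairs can give). The lowest Esrp1 value, 11, lay above the highest Esrp2 value, 5. With both spans extended by 1000 nt the difference was 8 sites, and the groups met at 11 (exact permutation test, two-sided, p = 0.2). Per kb of span Esrp1 had 0.383, 0.201 and 0.219 sites in lists 1, 2 and 3, with a mean of 0.267 ± 0.1004. Esrp2 had 0, 0.145 and 0.727 sites per kb, with a mean of 0.291 ± 0.385. The groups overlapped, and the difference of -0.02 sites per kb was smaller than the spread between lists (exact permutation test, two-sided, p = 1, also when paired by list). The genes were thus not separated per kb, and 3 lists cannot show that they are alike.

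**Figure D4:**
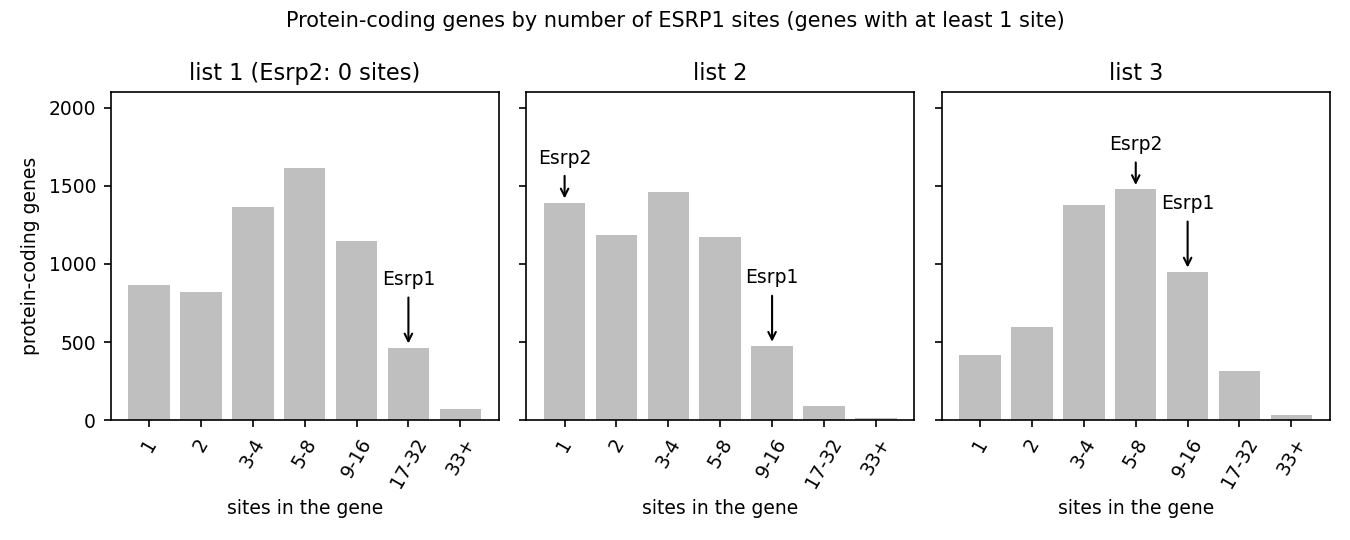
Number of protein-coding genes (vertical axis) by number of sites in the gene (horizontal axis, in bins), 1 panel per list, for genes with at least 1 site. Arrows mark the bins of Esrp1, with 21, 11 and 12 sites, and of Esrp2, with 1 site in list 2 and 5 in list 3, and 0 in list 1.

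RNA-binding proteins of a related structural kind were set beside the Esrp genes. The quasi-RRM proteins are the hnRNP F/H family and its relatives, whose RNA-binding domains resemble those of ESRPs. Of 6 such genes, 3 had a region found in all 3 lists, against 16.4% of protein-coding genes. Hnrnph1 had 3 regions, with 21, 10 and 16 sites in lists 1, 2 and 3, counts near those of Esrp1. Its span of 11272 nt is shorter, and it had 4.17 summed sites per kb, against 0.802 in Esrp1. Hnrnph2 and Hnrnpf had 2 regions each. Hnrnph3 had 0, 5 and 1 sites and no shared region, and no site was counted in Grsf1 or Rbm12.

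Of 12 splicing regulators known to act with or against ESRPs, 7 had a region found in all 3 lists, against 16.4% of protein-coding genes. The 7 include Rbfox2, whose strand was taken from the sites themselves and may not be its own. Among the 11 with an annotated strand, 6 had a shared region, against 16.1% of all such genes. Of the 12 genes, 9 had a site in every list, against 19.2% of protein-coding genes. Among the 9 was Mbnl1, with 16, 2 and 10 sites and no shared region. Hnrnpa1 had 7 regions found in all 3 lists, Hnrnpm had 6, and Rbm47 and Qk had 4 each, all more than the 3 of Esrp1. These counts do not allow for span. Summed sites per kb were 11.5 in Hnrnpa1 and 2.50 in Hnrnpm, above the 0.802 of Esrp1, but 0.384 in Rbm47 and 0.452 in Qk, below it. HNRNPM is known to oppose ESRP1 at exons of Cd44, and RBM47 and QK regulate many of the exons that change between epithelial and mesenchymal cells. No site was counted in Ptbp1 or Tial1. The median of sites summed over the lists was 21 for these 12 genes and 15.5 for the 6 quasi-RRM genes, against 0 for all protein-coding genes. Expression was not matched in these counts.

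Transcription factors that are known to turn Esrp genes or the epithelial programme on or off had a region found in all 3 lists in 8 of 14 cases, against 16.4% of protein-coding genes. Grhl1, an epidermal activator, led with 7 regions, followed by Klf4 with 4 and Trp63 with 2. Grhl2 and Grhl3, activators of epithelial genes, had 1 each, and so had Zeb1, Zeb2 and Twist1, which are known as drivers of the mesenchymal state. Zeb1 had 22 sites summed over the lists, Twist1 had 10 and Zeb2 had 8. The epithelial factors Ovol1, Ovol2, Elf3 and Ehf had no region found in all 3 lists, nor had the repressors Snai1 and Snai2. Ehf had 9 sites summed over the lists, Elf3 and Ovol1 had 4 each, and no site was counted in Ovol2, Snai1 or Snai2. The strand of Grhl2, Trp63, Zeb1, Ehf, Ovol1 and Snai2 was taken from the sites themselves. It may not be the gene's own, so sites and regions counted for these genes may be antisense to them. Of the 8 genes in this list with an annotated strand, 5 had a shared region, against 16.1% of all such genes.

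By counts alone, the genes most like Esrp1 were Atad2b, Mpzl3, Pcmt1, Ski and Cdyl. Likeness was the sum over the 3 lists of the difference in log2(sites + 1), and it lay between 0.14 and 0.29 for these genes. Atad2b had 19, 11 and 12 sites, and Pcmt1, with a span of 53493 nt, had 21, 12 and 13. Hnrnpab, Ubald2 and Mst1r had the same counts as Esrp2 in every list, 0, 1 and 5. With 3 lists such likeness is a description only.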

How the data were processed

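The values used were 3 lists of 1 nt sites, each with a strand and a score that the authors deposited without a stated scale. The authors called sites using input, and each list names 2 replicates, per the file headers. Per the submitters' processing notes, cutadapt 1.16, HISAT2 2.1.0 and HOMER were used, with builds GRCm38 and mm10, roles not given. A title in the labels names PureCLIP. How PCR duplicates and reads with several alignments were treated is not given in the sources used, and either can add or remove sites in abundant or repeated genes.

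Regions were built per list and strand from sites no more than 10 nt from the next, and regions from separate lists were shared when their nearest ends were no more than 10 nt apart, with Python 3.11.15, pandas 2.3.3 and SciPy 1.17.1. Joining and sharing were tested on simulated data. Gene extents came from RefSeq on GRCm38.p6, with 1-based coordinates. Strand came from a RefSeq table for 17491 of 21896 protein-coding genes, and otherwise from the strand with most sites. A strand taken from the sites may not be the gene's own. The RefSeq table holds neither Esrp1 nor Esrp2, whose minus strand is general knowledge. Sites under a second protein-coding span were left out of gene counts. Percentiles rank a score within its list. The members, gene lists and tests were chosen with earlier results of these data known. Named genes were Esrp1, Esrp2, up to 4 members of each list with most shared regions and the genes closest in counts. Other list members were named after their values were seen. Sequences were not used here. Where the labels' replicates are biological, p-values over lists still measure only the spread between 3 pooled calls.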

Additional observations from a re-analysis of the deposited data

How the results depend on the processing

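Replicate numbers pair immunoprecipitation and input, which each list holds together, so the paired comparison was that of the genes within a list. With this replicate block, chosen after seeing the data, the difference between Esrp1 and Esrp2 stayed 12.7 sites (exact sign-flip permutation p = 0.25) and -0.0235 sites per kb (exact sign-flip permutation p = 1). With the 50% of sites of highest score, the mean per list was 5.67 sites and 4 regions in Esrp1 and 0.333 sites and 0.333 regions in Esrp2, and 2 Esrp1 regions were found in all 3 lists. With the 25% of highest score, Esrp1 had 1.67 sites and 1 region per list and 1 region in all 3 lists, and Esrp2 had 0 sites and 0 regions. Extending the spans by 1000 nt gave Esrp2 6.67 sites and 3 regions per list and 1 region in all 3 lists, left Esrp1 as it was, and lowered the difference between the genes to 8 sites. Leaving out 1 list at a time gave 2 to 6 Esrp1 regions in all remaining lists, the 6 without list 2. It gave 0.5 to 3 sites and 0.5 to 2.5 regions per list in Esrp2, lowest without list 3. The difference between Esrp1 and Esrp2 turned from 12.7 sites to -0.0235 sites per kb of span, because Esrp1 is the longer gene. Per kb Esrp1 ranked 1719 and Esrp2 1584, and within their span deciles 54 and 280. Joining only adjacent sites, joining within 50 nt, sharing within 50 nt and counting either strand kept the number of regions in all 3 lists at 3 in Esrp1 and 0 in Esrp2. With the strand of most sites for every gene the ranks were 359 and 4703, and with sites under a second span kept they were 363 and 4532, both settings chosen after seeing the data. Depth is unknown, so a gene or nucleotide without a site may be below detection.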
